A study of Mus musculus with 12 samples.

Results

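The 38 genes described here, of 28244 in the deposited table, are marker genes of macrophages and related myeloid cells together with genes of antigen presentation by MHC class II. They were chosen by symbol from a list that names pan-leukocyte genes, the lineage factor Spi1 and the receptor Csf1r, signalling adapters, Fc receptors, scavenger receptors, complement C1q, lysosomal genes, MHC class II genes, Pf4 and F13a1. All 38 symbols were found. The list was proposed with earlier results of the same 12 libraries known, including the levels by time point and by replicate, so the levels and differences of its members are given as a description. Where a member is said to be called or not called, this places it by a threshold of the fit over all genes and is no evidence for the choice of the list.

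The libraries were made from pellets of mesenchymal (cartilage) progenitors of C57/BL6 mouse pups aged 5 or 6 days, obtained by collagenase digestion of the ends of femurs and tibiae after loosened tissue had been cleared from the cartilage pieces by pipetting. All pellets spent 7 days in chondrogenic medium and were then moved to osteogenic medium. Libraries of D7, the end of the chondrogenic phase, thus had 0 days in osteogenic medium, those of D8 had 1, those of D10 had 3 and those of D28 had 21, with 3 libraries for each time point and no untreated arm. A fraction of the starting cells was examined by flow cytometry with antibodies that include CD45, the product of Ptprc, and the red cell antigen Ter-119, and the resulting population is described as negative for both. The time points also differ in medium and in time in culture, and nothing states that the replicates came from separate animals or cultures, so the spread given here may be technical.

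Macrophages are phagocytes that depend on signals through the Csf1 receptor and on the transcription factor PU.1, encoded by Spi1. Tissue macrophages are known for making complement C1q, for scavenger receptors such as Cd163 and Mrc1, and for lysosomal enzymes such as lysozyme. MHC class II molecules, made of an alpha and a beta chain that the invariant chain Cd74 escorts, present peptides from swallowed material, while MHC class I molecules are carried by almost all cells and present peptides from inside the cell. In skeletal tissue the same lineage also gives rise to the bone-resorbing osteoclast.

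The deposited value is the log2 of the equalized read count plus 1, and all levels below are on that scale unless a level per kb is named. The values of a library have nearly the same distribution as those of any other, so totals carry no depth. The lowest levels show the read counts: 3 reads stood at a log2 level between 1.50 and 2.87, depending on the library, and a gene at or under that level is treated as barely detected. That level differed by time point: it was 2.87, 2.50 and 2.44 at D10 and 1.50, 1.54 and 1.50 at D28. At D7 and D8 it lay between 1.87 and 2.46. A gene of few reads was thus counted as detected at a lower level at D28 than at D10. The 3-read floor covers counting error only. Differences between time points are those of a limma fit to 4 time point means over 17674 genes with a log2 level of at least 1 in at least 3 libraries, and a gene is called higher or lower at a Benjamini-Hochberg adjusted p under 0.05 and an absolute log2 difference of at least 1. Differences are written with their SE. One member, Cx3cr1, did not pass that filter, and it had at most 3 reads in every library. The others passed, of which Cd52, Aif1, Ly86 and Fcgr1 would not have passed on the D7, D8 and D10 libraries alone, so that their number is no result.

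One library stood apart, and it bears on most of what follows. In D28 replicate 2, 24 of the 38 members (63.2%) were at least 1 log2 unit above both other D28 libraries, compared with 2.94% of all genes tested. In each of the other 11 libraries the same count was between 0% and 7.89% of the members. Added up without F13a1 and H2-Ab1, whose levels far exceed the rest, the unlogged levels of the other 36 members came to 9612 in D28 replicate 2 and to between 1891 and 2448 in the other libraries. With the unlogged values rescaled by median of ratios the sums were 10153 and 1820 to 2567. The 7 chondrocyte genes and the 7 osteoblast genes examined gave no gene with such a margin in that library. Differences between D28 and another time point are therefore given with and without replicate 2. In RNA from whole pellets, fewer cells of a type and less RNA per cell cannot be told apart.

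**Figure D1:**
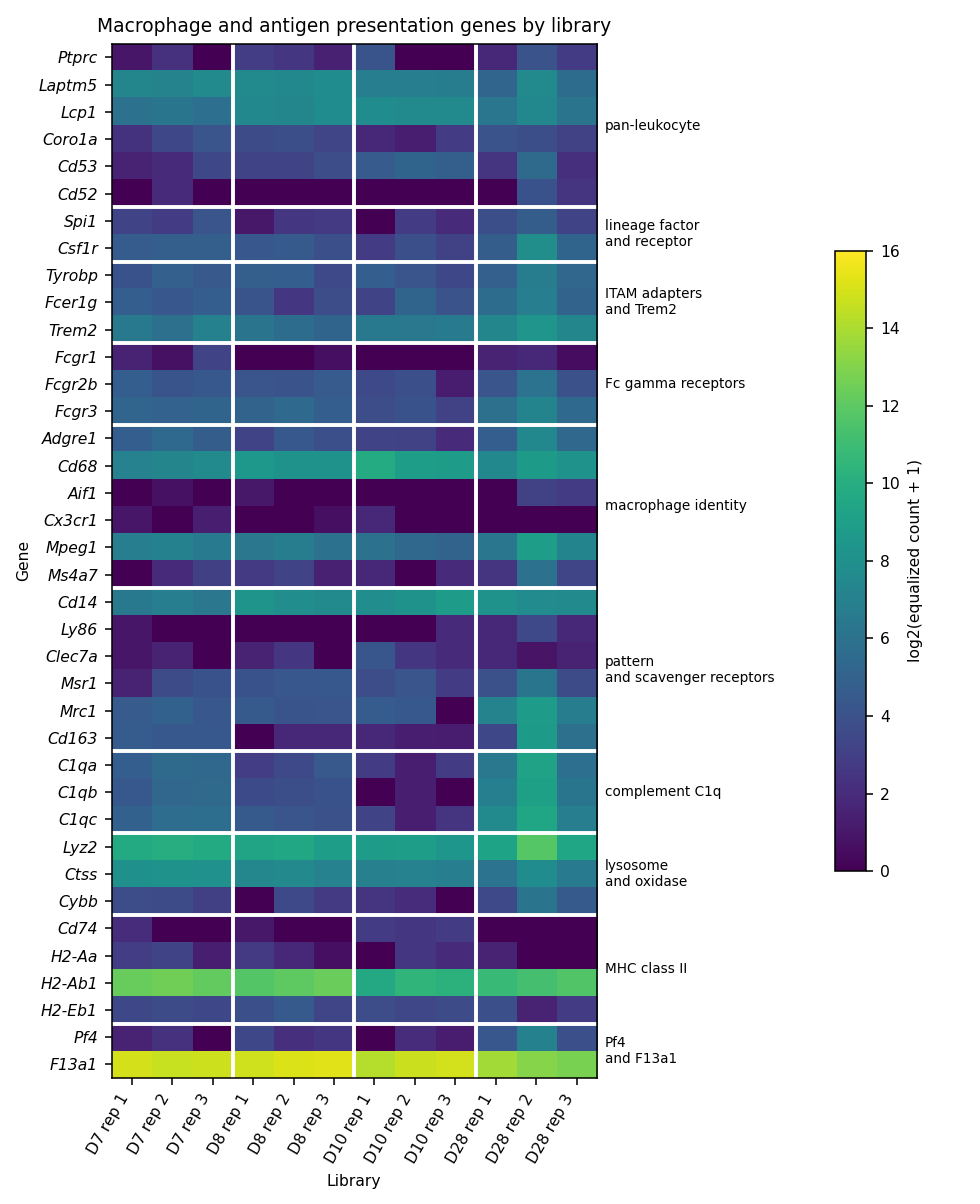
Level of each of the 38 members (rows, grouped by role) in each of the 12 libraries (columns), as log2 of the equalized count plus 1 in colour. F13a1 and H2-Ab1 are bright throughout, many rows are darkest at D10, and the column of D28 replicate 2 is the brightest for 29 of the 38 among the D28 libraries.

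The 3 chains of complement C1q, the recognition part of the classical complement pathway, were lowest at D10 and highest at D28. C1qa had log2 levels of 4.75, 5.56 and 5.34 at D7, 2.92, 3.55 and 4.49 at D8, 2.87, 1.37 and 2.79 at D10 and 6.38, 9.23 and 5.87 at D28. For C1qb the log2 levels were 4.43, 5.31 and 5.52 at D7, 3.58, 3.82 and 4.05 at D8, 0, 1.37 and 0 at D10 and 6.93, 9.10 and 6.20 at D28. Replicates 1 to 3 of C1qc gave log2 levels of 5.00, 5.72 and 5.81 at D7, 4.51, 4.25 and 3.96 at D8, 3.26, 1.37 and 2.44 at D10 and 7.66, 9.47 and 6.82 at D28. In all 3 genes every D10 library was below every D7 library, and all D28 libraries, also without replicate 2, were above all D7 libraries. C1qa was -2.87 ± 0.71 log2 units at D10 relative to D7 and 4.82 ± 0.71 log2 units at D28 relative to D10, or 3.78 without D28 replicate 2. For C1qc these log2 differences were -3.15 ± 0.58 and 5.63 ± 0.58, the second 4.88 without replicate 2. C1qb held at most 3 reads in all D10 libraries, which makes it at least 4.63-fold lower at D10 than at D7 and at least 23.1-fold higher at D28 than at D10, the latter at least 12.9-fold without replicate 2. Compared with D7, the D28 log2 difference was 1.95 ± 0.71 for C1qa, 2.32 ± 0.62 for C1qb and 2.47 ± 0.58 for C1qc, and 0.91, 1.48 and 1.73 without replicate 2. Per kb of exon, a scale on which genes can be compared, the D7 levels were 35.8 ± 9.95 equalized counts for C1qa, 31.9 ± 11.6 for C1qb and 23.8 ± 6.78 for C1qc.

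The genes lie side by side on the minus strand of chromosome 4 (GRCm38, GENCODE M21: C1qa chr4:136895917-136898803, C1qb chr4:136880129-136886187 and C1qc chr4:136889804-136893065). Because the 3 genes share this order over time, the 250 bases before the RefSeq start of C1qb are shown from the RefSeq promoter table (GRCm38.p6). The capitals mark the letters AGGAAGT, the core that ETS factors such as PU.1 recognise, read on either strand (ACTTCCT on the strand shown).
C1qb, chr4:136886201-136886450, minus strand: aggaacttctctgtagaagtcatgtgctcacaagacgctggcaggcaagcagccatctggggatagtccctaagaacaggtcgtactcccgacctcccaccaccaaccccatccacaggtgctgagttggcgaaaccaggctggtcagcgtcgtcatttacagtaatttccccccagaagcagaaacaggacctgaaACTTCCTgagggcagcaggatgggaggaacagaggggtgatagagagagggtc
The capitals begin 53 bases before the RefSeq start of C1qb. The letters were also found in the windows of C1qc, Mrc1 and Lyz2, whose starts GENCODE places further upstream than the promoter table does, so that part of each window lies inside the GENCODE gene. With 50 bases after the RefSeq start included, AGGAAGT was present on either strand in 10 of the 28 members with a promoter entry (35.7%) and in 2886 of 27025 genes of the table (10.7%). The other 6 members with it were Ptprc, Ctss, Fcgr1, Cd53, Pf4 and F13a1, whose time courses differ from one another. A match of letters is not a measured binding site.

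Among the scavenger and pattern receptors, Cd163, which takes up haemoglobin bound to haptoglobin, and the mannose receptor Mrc1 were highest at D28. In order of replicate, Cd163 stood at log2 levels of 4.64, 4.43 and 4.42 at D7, 0, 1.77 and 1.87 at D8, 1.81, 1.37 and 1.22 at D10 and 3.45, 8.70 and 5.93 at D28. Both D8 and D10 held at most 3 reads in every library, so Cd163 was at least 3.08-fold lower at D10 than at D7 and at least 8.88-fold higher at D28 than at D10, or at least 3.52-fold without D28 replicate 2. The 3 D28 libraries were far apart, and the range of D28 enclosed that of D7. Mrc1 levels (log2) were 4.56, 4.97 and 4.34 at D7, 4.51, 4.16 and 4.22 at D8, 4.67, 4.42 and 0 at D10 and 7.17, 8.79 and 6.74 at D28. All D28 libraries of Mrc1 were above all others, with a log2 difference of 4.54 ± 0.89 from D10 and 3.93 without replicate 2, while 1 D10 library was at 0. Against D7 the difference was 2.94 ± 0.89, and 2.33 without replicate 2, where it was no longer called.

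The 4 other receptors of this group were Cd14, Msr1, Ly86 and Clec7a. The log2 level of Cd14 was 6.47, 6.87 and 6.36 at D7, 8.30, 7.82 and 7.56 at D8, 7.82, 8.15 and 8.77 at D10 and 8.24, 7.71 and 7.59 at D28. Cd14, the co-receptor for bacterial lipopolysaccharide, was higher at D8, D10 and D28 than at D7 without overlap, by log2 differences of 1.33 ± 0.26, 1.68 ± 0.26 and 1.27 ± 0.26, the last 1.34 without D28 replicate 2, and that library was not its highest D28 library. Msr1 had log2 levels of 1.54, 3.63 and 4.00 at D7, 4.02, 4.34 and 4.43 at D8, 3.76, 4.19 and 2.79 at D10 and 3.95, 6.22 and 3.71 at D28. Msr1, the class A scavenger receptor, was called in no comparison, and its D28 mean of 4.62 ± 1.38 (SD, n = 3) was 3.83 without replicate 2. For Ly86 the log2 levels were 0.94, 0 and 0 at D7, 0 in all 3 libraries of D8, 0, 0 and 1.97 at D10 and 1.81, 3.55 and 1.81 at D28. Ly86, the partner of a relative of the Toll-like receptors, exceeded 3 reads in the D28 libraries alone. It was at least 1.17-fold higher than at D10, a bound that rests on replicate 2, without which its D28 levels were under the floor of 2.87 and its calls against D10 and D7 were lost. The beta-glucan receptor Clec7a exceeded 3 reads in all libraries of no time point and had its highest level, 4.31, in D10 replicate 1.

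**Figure D2:**
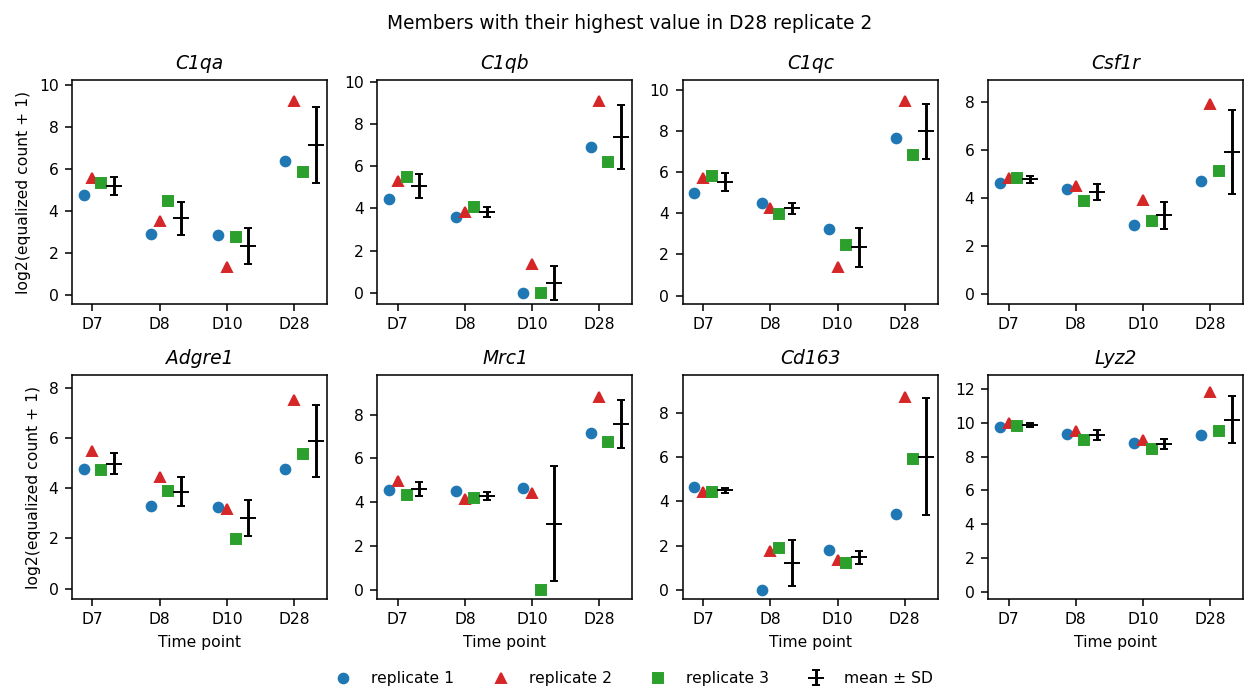
Log2 level of 8 members (one panel each) at D7, D8, D10 and D28, with a symbol per replicate and the mean ± SD of 3 libraries beside them. In each panel the triangle of replicate 2 is the highest D28 symbol, and for C1qa, C1qb, C1qc and Mrc1 the other D28 symbols are also above D7.

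Csf1r, the receptor for the growth factors Csf1 and Il34, and Spi1 mark the lineage itself. Replicates 1 to 3 of Csf1r gave log2 levels of 4.64, 4.86 and 4.86 at D7, 4.37, 4.51 and 3.88 at D8, 2.87, 3.91 and 3.07 at D10 and 4.72, 7.92 and 5.13 at D28. All D10 levels of Csf1r except that of replicate 2 were below all D8 levels, and D28 exceeded D10 by 2.64 ± 0.62 log2 units, or 1.64 without replicate 2. Without that library D28 was within 0.14 log2 units of D7. In order of replicate, Spi1 stood at log2 levels of 3.26, 2.79 and 4.22 at D7, 1.06, 2.52 and 2.74 at D8, 0, 2.84 and 1.97 at D10 and 3.82, 4.74 and 3.26 at D28. Spi1 stood close to the 3-read level at D8 and D10 and was 2.34 ± 0.71 log2 units higher at D28 than at D10, a difference of 1.94 that was not called without replicate 2.

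The macrophage identity genes split in 2 directions. Adgre1 levels (log2) were 4.75, 5.46 and 4.72 at D7, 3.29, 4.43 and 3.88 at D8, 3.26, 3.17 and 1.97 at D10 and 4.75, 7.49 and 5.36 at D28. Adgre1, an adhesion receptor used to identify mouse macrophages, differed by -2.18 ± 0.60 log2 units at D10 relative to D7 and by 3.07 ± 0.60 at D28 relative to D10 (2.25 without replicate 2), after which it was back within the range of D7 in replicates 1 and 3. The log2 level of Mpeg1 was 6.86, 7.02 and 6.53 at D7, 6.34, 6.74 and 6.05 at D8, 6.00, 5.41 and 5.10 at D10 and 6.27, 8.90 and 7.24 at D28. Mpeg1, which encodes the pore-forming perforin-2, followed the same course with smaller log2 differences, -1.30 ± 0.47 at D10 against D7 and 1.97 ± 0.47 at D28 against D10 (1.25 without replicate 2). Cd68 had log2 levels of 7.10, 7.29 and 7.57 at D7, 8.56, 8.13 and 8.18 at D8, 9.87, 8.91 and 8.82 at D10 and 7.45, 8.72 and 8.16 at D28. Cd68, a glycoprotein of lysosomes, went the other way: its D10 levels were above all D7 and all D8 levels, by 1.88 ± 0.30 log2 units relative to D7, and D28 was -1.09 ± 0.30 log2 units relative to D10, or -1.39 without replicate 2. For Ms4a7 the log2 levels were 0, 1.97 and 3.01 at D7, 2.73, 3.26 and 1.46 at D8, 1.81, 0 and 1.97 at D10 and 2.39, 6.06 and 3.37 at D28. Ms4a7, a membrane-spanning protein of macrophages, was thus highest in D28 replicate 2. Aif1, an actin-binding protein, was at 0 in D28 replicate 1 and at 3.07 and 2.82 in replicates 2 and 3, with at most 3 reads in each of the other libraries, and Cx3cr1, the fractalkine receptor, was at 0 in all D28 libraries.

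The adapter genes Tyrobp and Fcer1g, which couple activating receptors to kinases through ITAM motifs, and Trem2, a receptor that signals through Tyrobp, were called in no comparison among D7, D8 and D10. Replicates 1 to 3 of Tyrobp gave log2 levels of 4.04, 4.93 and 4.49 at D7, 4.86, 4.79 and 3.55 at D8, 4.77, 4.19 and 3.49 at D10 and 4.92, 6.71 and 5.29 at D28. In order of replicate, Fcer1g stood at log2 levels of 4.80, 4.36 and 4.79 at D7, 4.14, 2.52 and 3.79 at D8, 3.26, 5.13 and 4.11 at D10 and 5.63, 6.84 and 5.07 at D28. Trem2 levels (log2) were 6.47, 5.89 and 7.03 at D7, 6.16, 5.68 and 5.15 at D8, 6.44, 6.39 and 6.64 at D10 and 7.32, 8.32 and 7.36 at D28. Their D28 to D10 log2 differences were 1.49 ± 0.51, 1.68 ± 0.55 and 1.18 ± 0.34, and 0.96, 1.19 and 0.85 without replicate 2, where none of the 3 was called. Trem2 was nevertheless higher in each D28 library than in every other library.

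Of the Fc gamma receptors, which bind antibody, Fcgr3 and Fcgr2b exceeded 3 reads in most libraries. The log2 level of Fcgr3 was 5.23, 5.05 and 5.19 at D7, 5.07, 5.46 and 4.77 at D8, 3.76, 4.05 and 3.07 at D10 and 5.93, 7.23 and 5.49 at D28. Fcgr3 was -1.53 ± 0.42 log2 units at D10 relative to D7 and 2.58 ± 0.42 at D28 relative to D10, 2.08 without replicate 2, and neither D7 and D10 nor D10 and D28 overlapped. Fcgr2b had log2 levels of 4.80, 4.16 and 4.42 at D7, 4.22, 4.07 and 4.56 at D8, 3.54, 3.91 and 1.22 at D10 and 4.20, 6.08 and 3.95 at D28. The inhibitory receptor Fcgr2b was lower in each D10 library than at D7 and D8, and its D28 log2 difference from D10, 1.85 ± 0.65, was 1.18 and not called without replicate 2. The high-affinity receptor Fcgr1 exceeded 3 reads in D7 replicate 3, at 3.26, and in D28 replicate 2, at 1.84, and in no other library. The Fcgr genes share sequence, so reads of one could have been counted for another.

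Lysosomal and oxidase genes divided by time course as well. For Lyz2 the log2 levels were 9.77, 9.97 and 9.80 at D7, 9.35, 9.52 and 8.96 at D8, 8.79, 8.97 and 8.42 at D10 and 9.26, 11.80 and 9.49 at D28. Lyz2, macrophage lysozyme, was lower at D10 than at D7 without overlap, and at D28 replicate 2 stood 2.42 log2 units above the mean of the other D28 libraries. Its D28 to D10 log2 difference of 1.46 ± 0.44 was 0.65 and not called without that library. Lyz1 is a near-identical copy of Lyz2, so the division of reads between them is uncertain. Replicates 1 to 3 of Ctss gave log2 levels of 8.05, 8.19 and 8.10 at D7, 7.39, 7.53 and 7.09 at D8, 6.97, 7.10 and 6.82 at D10 and 6.11, 7.80 and 6.66 at D28. Ctss, a cathepsin that trims the invariant chain in antigen presentation, was -1.15 ± 0.31 log2 units at D10 and -1.25 ± 0.31 at D28 relative to D7, and -1.72 without replicate 2. In order of replicate, Cybb stood at log2 levels of 3.81, 3.73 and 3.01 at D7, 0, 3.55 and 2.74 at D8, 2.44, 2.03 and 0 at D10 and 3.55, 6.17 and 4.53 at D28. Cybb, the catalytic subunit of the phagocyte NADPH oxidase, had at most 3 reads at D10 and was at least 3.67-fold higher at D28, or at least 2.25-fold without replicate 2.

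The pan-leukocyte genes did not move as one. Ptprc levels (log2) were 0.94, 2.30 and 0 at D7, 2.92, 2.52 and 1.46 at D8, 4.16, 0 and 0 at D10 and 1.81, 4.12 and 2.82 at D28. Ptprc, the CD45 antigen of nucleated blood cells, was at 0 in 2 of the D10 libraries and at its highest in the third, with no call in any comparison. The log2 level of Lcp1 was 5.95, 6.19 and 5.84 at D7, 7.45, 7.33 and 7.81 at D8, 7.76, 7.62 and 7.59 at D10 and 6.27, 7.48 and 6.17 at D28. The actin bundler Lcp1 was higher in all D8 and D10 libraries than in all D7 libraries, by log2 differences of 1.54 ± 0.29 and 1.67 ± 0.29, and at D28 replicates 1 and 3 had come down again. Cd53 had log2 levels of 1.54, 1.97 and 3.45 at D7, 3.29, 3.26 and 3.79 at D8, 4.57, 5.18 and 4.86 at D10 and 2.39, 5.55 and 2.22 at D28. The tetraspanin Cd53 was above all D7 and D8 libraries at D10, 2.55 ± 0.73 log2 units over D7, and its D28 values ran from 2.22 to 5.55. For Laptm5 the log2 levels were 7.32, 7.14 and 7.68 at D7, 7.59, 7.45 and 7.75 at D8, 6.83, 6.87 and 6.74 at D10 and 5.23, 7.59 and 5.65 at D28. Laptm5, a lysosomal membrane protein of blood cells, was lower at D28 than at D7 in replicates 1 and 3 and not in replicate 2, with a log2 difference of -1.22 ± 0.42, or -1.94 without replicate 2. Replicates 1 to 3 of Coro1a gave log2 levels of 2.37, 3.45 and 4.22 at D7, 3.71, 3.82 and 3.36 at D8, 1.81, 1.37 and 2.79 at D10 and 4.11, 3.84 and 3.17 at D28. Coro1a, an actin regulator, was -1.64 ± 0.53 log2 units at D10 relative to D8 and 1.72 ± 0.53 at D28 relative to D10, 1.65 without replicate 2. Cd52, a surface peptide of leukocytes, exceeded 3 reads in D28 replicates 2 and 3 alone, at 4.05 and 2.44.

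**Figure D3:**
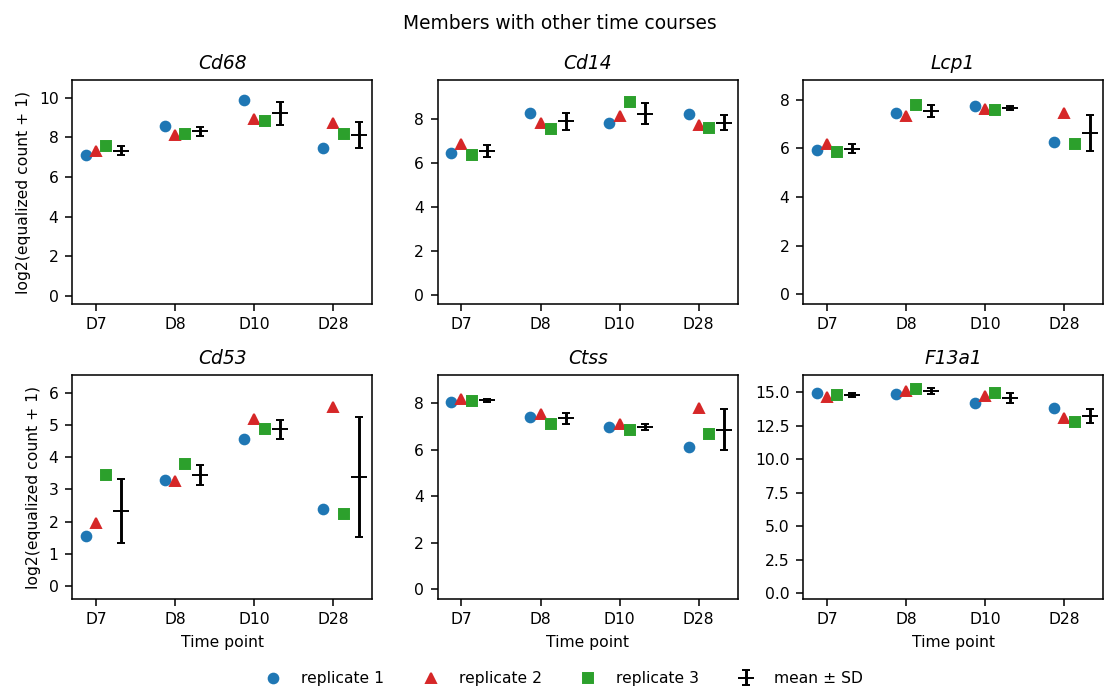
Log2 level of Cd68, Cd14, Lcp1, Cd53, Ctss and F13a1 at D7, D8, D10 and D28, with a symbol per replicate and the mean ± SD of 3 libraries. Cd68, Cd14, Lcp1 and Cd53 are higher at D10 than at D7, while Ctss and F13a1 are lower at D28 than at D7, with log2 differences of -1.25 ± 0.31 and -1.56 ± 0.23.

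The last role group pairs Pf4, platelet factor 4, which some tissue macrophages also make, with F13a1, the A chain of coagulation factor XIII, which macrophages and chondrocytes are both known to make. In order of replicate, Pf4 stood at log2 levels of 1.54, 2.30 and 0 at D7, 3.45, 2.17 and 2.50 at D8, 0, 2.03 and 1.22 at D10 and 4.34, 7.01 and 3.91 at D28. At D10 Pf4 had at most 3 reads in each library, and it was at least 4.64-fold higher at D28 than at D10, or at least 2.38-fold without D28 replicate 2. Relative to D7 its D28 log2 difference was 3.81 ± 0.81, or 2.85 without that library. F13a1 levels (log2) were 14.94, 14.64 and 14.78 at D7, 14.85, 15.13 and 15.28 at D8, 14.21, 14.70 and 14.92 at D10 and 13.81, 13.09 and 12.79 at D28. Without regard to length, F13a1 had the highest value of the members in each library, and it was lower at D28 than at any other time without overlap, with a log2 difference of -1.56 ± 0.23 from D7 and -1.49 without replicate 2. Its level in D28 replicate 2 lay between those of the other D28 libraries. F13a1 and H2-Ab1 together made up between 53.8% and 96% of the unlogged sum of the members in a library, with the lowest share in D28 replicate 2.

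Antigen presentation through MHC class II was represented by 4 members, of which H2-Ab1 alone was abundant. The log2 level of H2-Ab1 was 12.28, 12.50 and 12.15 at D7, 11.71, 12.02 and 12.33 at D8, 9.64, 10.50 and 10.30 at D10 and 10.81, 11.28 and 11.64 at D28. H2-Ab1, the beta chain of the I-A molecule, was lower in all D10 libraries than in all D7, D8 and D28 libraries, with log2 differences of -2.16 ± 0.22 from D7 and -1.87 ± 0.22 from D8, and D28 was 1.10 ± 0.22 log2 units above D10, or 1.08 without D28 replicate 2. H2-Aa had log2 levels of 2.91, 3.27 and 1.37 at D7, 2.73, 1.77 and 0.66 at D8, 0, 2.50 and 1.97 at D10 and 1.50, 0 and 0 at D28. The alpha chain of the same molecule, H2-Aa, thus stood at or close to the 3-read level in most libraries. For H2-Eb1 the log2 levels were 3.45, 3.63 and 3.45 at D7, 3.91, 4.51 and 3.36 at D8, 3.76, 3.43 and 3.68 at D10 and 3.90, 1.54 and 2.82 at D28. H2-Eb1, the beta chain of I-E, was called in no comparison and was lowest in D28 replicate 2. Cd74 was at 0 in all D28 libraries and in 4 of the 6 libraries of D7 and D8, and at D10 it stood at 2.87, 2.50 and 2.79, not above the 3-read floor of 2.87 used for bounds, so its 2 higher calls at D10 and its lower call at D28 rest on a few reads.

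Per kb of exon the mean D7 level was 1990 ± 248 equalized counts (SD, n = 3) for H2-Ab1, 1.47 ± 0.951 for H2-Aa, 5.36 ± 0.445 for H2-Eb1 and 0.612 ± 1.06 for Cd74. The alpha chain and the escort of H2-Ab1 were therefore near the detection floor in the libraries in which H2-Ab1 was highest, and none of the 4 genes was at least 1 log2 unit higher in D28 replicate 2 than in the other D28 libraries. The gene model of H2-Ab1 differs between annotations: on the plus strand of chromosome 17 it starts at 34257689 in GENCODE M21 and at 34263227 in RefSeq, and ends at 34269419 in the former. Which reads filled this gene in the deposited table was not tested, and other H2 genes share sequence with it.

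For the 2 MHC class II members with an entry in the promoter table the 250 bases before the RefSeq start are shown, since their letters bear on the shared control region of these genes. The capitals mark CTGATTGG, the Y box bound by the factor NF-Y.
H2-Aa, chr17:34287824-34288073, minus strand: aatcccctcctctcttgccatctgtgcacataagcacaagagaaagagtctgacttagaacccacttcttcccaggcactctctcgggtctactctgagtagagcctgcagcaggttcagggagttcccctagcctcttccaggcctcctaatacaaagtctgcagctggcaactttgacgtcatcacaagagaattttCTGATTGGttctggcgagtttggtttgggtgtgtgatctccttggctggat
H2-Eb1, chr17:34305617-34305866, plus strand: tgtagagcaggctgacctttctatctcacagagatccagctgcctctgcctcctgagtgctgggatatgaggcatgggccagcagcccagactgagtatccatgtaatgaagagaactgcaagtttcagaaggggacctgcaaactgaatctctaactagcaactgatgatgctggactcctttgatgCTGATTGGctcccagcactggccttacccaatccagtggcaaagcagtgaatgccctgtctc
The capitals begin 51 bases before the start in H2-Aa and 62 in H2-Eb1. Read on both strands of windows with 50 further bases after the start, CTGATTGG was found in these 2 of the 28 members with an entry (7.14%), in 2 of 11 further MHC class II genes, in 5 of 10 MHC class I genes and in 1271 of 27025 genes (4.7%). The letters were thus present in 2 members that were barely detected or low.

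Other genes of the class II pathway gave a mixed picture, from a list of 15 of which 12 were tested. Like the members, this list and those below were chosen with earlier results known, and most genes named from them were picked among those called. Their adjusted p-values therefore place them by the fit over all genes and are no independent evidence. H2-DMa and H2-DMb1, the chains of the chaperone that loads class II molecules, were lower at D10 than at D7, with log2 differences of -1.05 ± 0.26 and -1.81 ± 0.16 (limma, Benjamini-Hochberg adjusted p = 0.00387 and 3.69e-07). The protease Lgmn was also lower, with a log2 difference of -1.30 ± 0.14 (limma adjusted p = 2.61e-06), whereas the costimulatory ligand Cd80 was 1.90 ± 0.18 higher (limma adjusted p = 5.72e-07). Of the 12, 2 were called higher and 4 lower at D10 against D7, beside 8.5% and 10.4% of all genes tested, and 2 higher and 1 lower at D28 against D10, with or without replicate 2, beside 13.8% and 13.7%, or 13% and 13% without it. The class II transactivator Ciita ranged from 0 to 3.07 over the libraries.

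MHC class I genes, compared because they share the task of presentation, were measured in the same libraries. Of 12 genes, 10 were called higher at D28 than at D10 and 10 higher than at D7, 10 and 9 without replicate 2, against 13.8% and 8.63% of all genes tested. H2-D1, a class I heavy chain, stood at 12.15, 11.96 and 12.24 at D7, 12.24, 12.22 and 11.95 at D8, 12.15, 12.28 and 12.26 at D10 and 14.01, 14.20 and 14.11 at D28. Its log2 difference between D28 and D7 was 1.99 ± 0.11 (limma adjusted p = 3.71e-09). For B2m, the light chain of class I molecules, the difference was 1.80 ± 0.13 (limma adjusted p = 3.94e-08), for the heavy chain H2-K1 1.15 ± 0.14 (adjusted p = 1.02e-05) and for the peptide-loading factor Tapbp 1.80 ± 0.13 (adjusted p = 6.5e-08). Without D28 replicate 2 these log2 differences were 1.94 for H2-D1, 1.79 for B2m, 1.11 for H2-K1 and 1.72 for Tapbp. The median departure of D28 replicate 2 from the mean of the other D28 libraries was 0.13 log2 units over these 12 genes and 1.70 over the 38 members. The lists differ in expression level, and the difference between the departures was not tested.

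**Figure D4:**
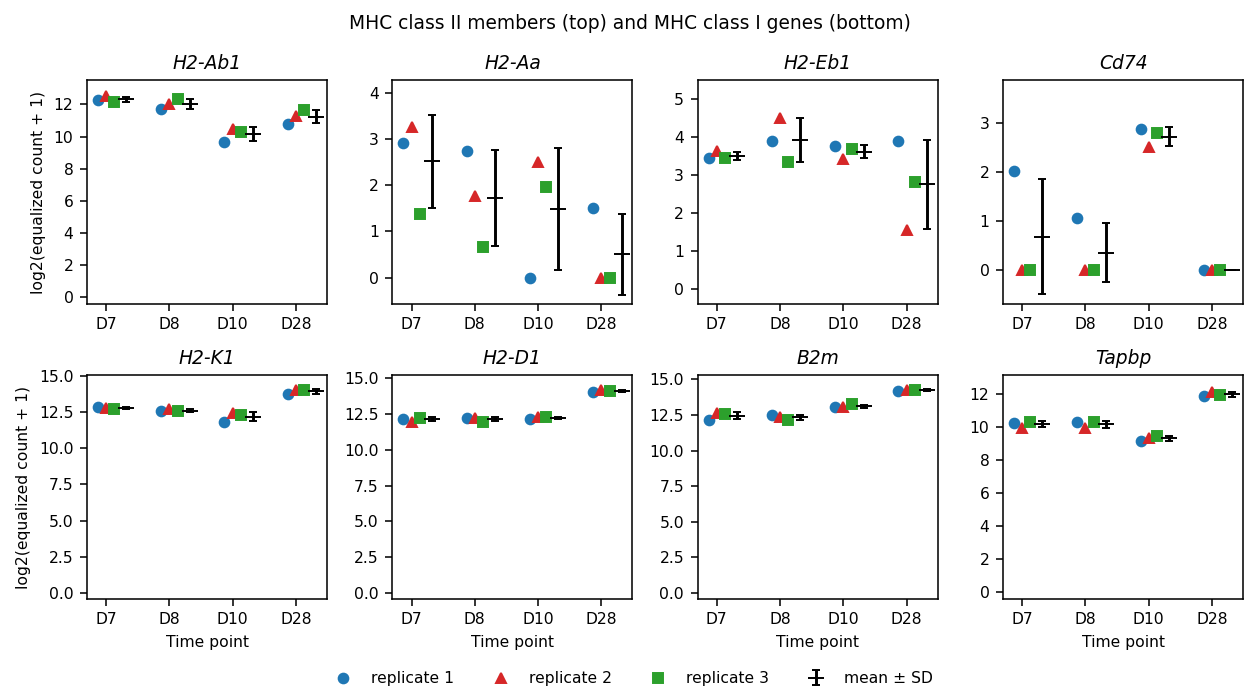
Log2 level of the MHC class II members H2-Ab1, H2-Aa, H2-Eb1 and Cd74 (top) and of the class I genes H2-K1, H2-D1, B2m and Tapbp (bottom) at D7, D8, D10 and D28, with a symbol per replicate and the mean ± SD of 3 libraries. H2-Ab1 dips at D10 and the other class II members stay low, while the class I genes are highest at D28 in all replicates.

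Members called higher or lower were counted in each comparison. At D8 against D7, 2 members were called higher and 1 lower, beside 3.23% and 3.81% of all genes tested. At D10 against D8 the counts were 1 and 5, beside 4.08% and 5.58%, and at D10 against D7 they were 6 and 10, beside 8.5% and 10.4%. At D28 against D10, 23 members were called higher and 4 lower, beside 13.8% and 13.7% of all genes. Without D28 replicate 2 these counts were 13 and 6, beside 13% and 13%, and all 13 were among the 23. Of the 23, Cd52 and Aif1 no longer passed the filter without that library and so were not tested. At D28 against D7 the counts were 8 and 4, beside 8.63% and 8.66%, and 4 and 4 without replicate 2, beside 7.69% and 8.06%. Members called higher there numbered 16 without D28 replicate 1 and 5 without D7 replicate 2, and those called lower 2 without D28 replicate 1. At D28 against D10, 2 were called lower without D10 replicate 1. Those called lower at D10 against D8 numbered 2 without D8 replicate 2 and 3 without D8 replicate 1 or D10 replicate 2, and those called higher 3 without D8 replicate 1 and 2 without D10 replicate 2, D10 replicate 3 or D28 replicate 2. At D8 against D7 the members called lower numbered 3 without D7 replicate 2, 2 without D28 replicate 2 and 0 without D7 replicate 1 or D8 replicate 1. Comparisons with a time point in common share its libraries. No share of all genes is given for the fits without a replicate other than D28 replicate 2. Since the members were chosen with these contrasts known, nothing is read from the shares.

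The median log2 difference over the 38 members was -0.61 at D10 against D7, 1.61 at D28 against D10 and 1.06 at D28 against D7, where the medians over all genes tested were 0.05, -0.10 and -0.03. Without D28 replicate 2 the medians of the members were 1.11 at D28 against D10 and 0.39 at D28 against D7. With low values raised to the 3-read floor of 2.87 and all libraries kept, the 3 medians of the members were -0.26, 1.04 and 0.66. Of the 7 chondrocyte genes, 0 were called higher and 5 lower at D10 against D7, beside 8.5% and 10.4% of all genes. At D28 against D10, 4 were called higher and 0 lower, beside 13.8% and 13.7%. For the 7 osteoblast genes these counts were 2 and 4, then 4 and 0. Without D28 replicate 2 the second counts were 4 and 0 and 3 and 0, beside 13% and 13%. A link with the members was not tested.

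The margin of D28 replicate 2 over the mean of the other D28 libraries is given by role. It was 2.53 log2 units in the median for the 3 C1q genes, 2.12 for the 3 lysosomal and oxidase genes, 2.10 for Spi1 and Csf1r, 1.98 for the 6 pan-leukocyte genes and 1.90 for the 6 identity genes. It was 1.79 for the 6 pattern and scavenger receptors, 1.52 for the 3 Fc gamma receptors, 1.49 for Tyrobp, Fcer1g and Trem2, 1.33 for Pf4 and F13a1 and -0.38 for the 4 MHC class II members. The highest margin of a member was 4.01, for Cd163, and the lowest -1.82, for H2-Eb1. Of 32 further macrophage genes that are not members, 14 were at least 1 log2 unit above both other D28 libraries in replicate 2. Among them Vsig4, a complement receptor of tissue macrophages, stood at 3.45, 8.48 and 4.73 in the 3 D28 libraries.

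Markers of other blood cells and of endothelial cells were detected in part. More than 3 reads in any library were found for 2 of 7 T cell genes, 1 of 5 B cell genes, 0 of 4 NK cell genes, 4 of 10 neutrophil genes, 1 of 6 mast cell genes, 4 of 7 dendritic cell genes and 1 of 6 erythroid genes, and for 7 of 7 endothelial genes. Those with at most 3 reads in every library could hardly show a margin. No gene of the T cell, B cell, NK cell, neutrophil, mast cell, dendritic cell, erythroid or endothelial lists was at least 1 log2 unit above both other D28 libraries in replicate 2. The unlogged sum of the 10 neutrophil genes was between 17 and 20.9 in the D28 libraries, that of the 7 T cell genes between 0.833 and 4.75 and that of the 7 endothelial genes between 20 and 44. Earlier, the T cell sum was 15 to 23.4 at D7, 51.8 to 80.9 at D8 and 56.4 to 82.1 at D10, and the endothelial sum 67.8 to 255 at D8. Per kb of exon, Lck had 23.4 ± 4.03 equalized counts at D10 and Cd4, the next T cell gene, 0.51 ± 0.883. The NK cell genes were at 0 in all D28 libraries. Of 9 osteoclast genes, 1 had the margin: Mmp9, a gelatinase, stood at 1.50, 7.07 and 4.87 at D28. Ctsk, the collagen-degrading cathepsin that stromal cells can also make, was at 12.28, 12.75 and 12.33 there, and the calcitonin receptor Calcr was at 0 in all 12 libraries. Of the 9 osteoclast genes, 7 were highest in replicate 2 among the D28 libraries. At D10 against D7, 4 of the 8 tested were called higher and 0 lower, beside 8.5% and 10.4% of all genes. At D28 against D10, 0 were called higher and 3 lower, with or without replicate 2, beside 13.8% and 13.7%, or 13% and 13% without it. The unlogged sum of the 9 was 5640 to 6650 at D7, 8810 to 11800 at D8, 16000 to 18000 at D10 and 5570 to 7700 at D28. The part of any cell type in the levels of D28 replicate 2 was not tested.

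**Figure D5:**
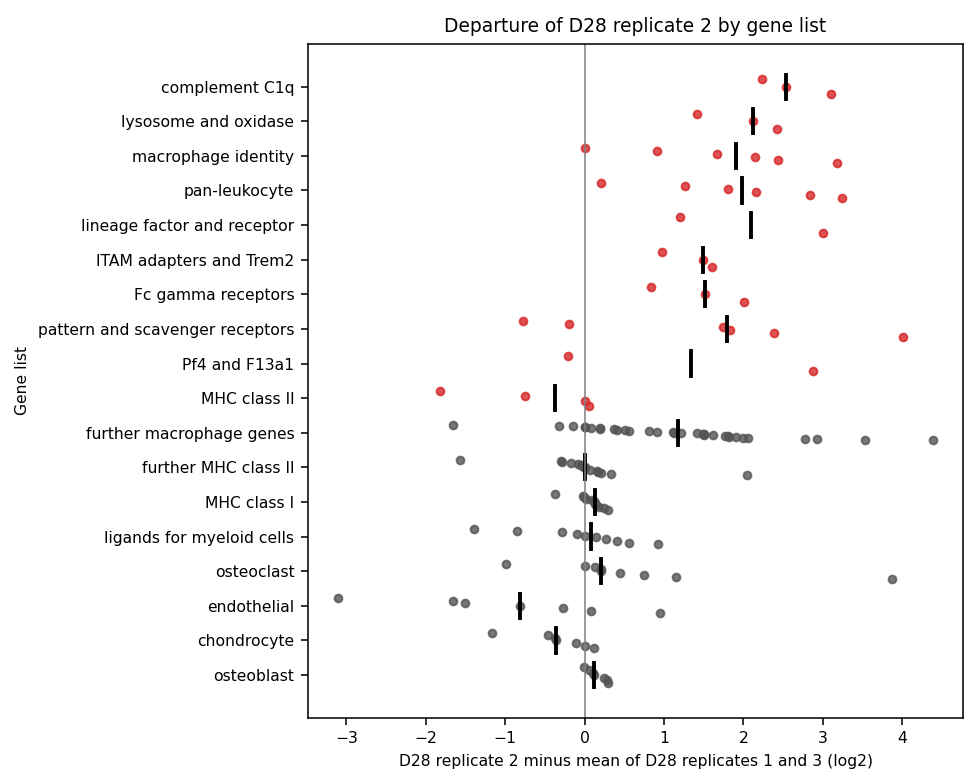
Log2 level in D28 replicate 2 minus the mean of D28 replicates 1 and 3 (horizontal axis), with one point per gene, for the member groups (red) and other gene lists (grey), and a bar at each list's median. The points of the C1q, lysosomal and identity groups lie at or above 0, with medians between 1.90 and 2.53, while the medians of the MHC class II, MHC class I, chondrocyte and osteoblast lists lie between -0.38 and 0.13.

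How far the members varied together also turned on that library. After the mean of each time point was removed, the median correlation over all pairs of 37 members was 0.315 across the 12 libraries. Without D28 replicate 2 it was 0.009, over 35 members and 11 libraries. The median over pairs of every 10th gene tested was -0.0011 with all libraries and -8e-04 without that library. These correlations share libraries and their depth, and are given as a description.

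The genes outside the list whose levels over the 12 libraries were most like the mean standardised level of the members, by Pearson's r, were Vsig4 (0.949), Emc9 (0.925), Pbx2 (0.922), Stab1 (0.91) and Cd300ld (0.907). They were followed by H2-M2 (0.891), Il22ra2 (0.88), Lyz1 (0.878), 1700019G24Rik (0.876) and Abcg3 (0.87). These last genes and Cd300ld would not have passed the filter on the D7, D8 and D10 libraries alone. Stab1, a scavenger receptor, stood at 7.65, 9.85 and 6.94 in the D28 libraries and between 3.07 and 5.47 in the others. Pbx2, a homeobox gene, was ranked by far smaller steps, with 10.01, 10.29 and 9.99 at D28 and 9.55 to 9.88 before. Without D28 replicate 2, Vsig4 still had an r of 0.9 over 11 libraries, Lyz1 one of 0.596 and H2-M2, the lowest of the 10, one of 0.49. None of the 10 was then among the 10 most alike.

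The 32 further macrophage genes, of which 31 were tested, gave 13 called higher and 1 lower at D28 against D10, beside 13.8% and 13.7% of all genes tested, or 9 and 2 without replicate 2, beside 13% and 13%. At D28 against D7 the counts were 11 and 1, beside 8.63% and 8.66%, or 9 and 2 without replicate 2, beside 7.69% and 8.06%. Marco, a scavenger receptor, had at most 3 reads in all libraries up to D10 and 5.01, 6.89 and 4.95 at D28, at least 6.7-fold higher than at D10 and at least 4.31-fold without replicate 2. It passed the filter through the D28 libraries alone, so no test is given for it. Gpnmb, a glycoprotein of macrophages, osteoclasts and osteoblasts, was 2.52 ± 0.15 log2 units higher at D10 than at D7 (limma adjusted p = 1.02e-08). Maf, a transcription factor of macrophages that chondrocytes use as well, was -1.88 ± 0.18 log2 units at D10 relative to D7 (limma adjusted p = 8.4e-07), and it was 2.14 ± 0.18 higher at D28 than at D10 (limma adjusted p = 9.98e-08), or 2.02 without replicate 2. Cebpa and the sterol sensor Nr1h3 were higher at D28 than at D7 by 1.97 ± 0.16 and 2.71 ± 0.21 log2 units (limma adjusted p = 1.42e-07 and 9.32e-08), or 2.02 and 2.65 without replicate 2. Ciita, Mmp9, Calcr and Marco were named after their values had been seen.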

How the data were processed

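RNA sequencing values of 12 libraries, 3 for each of D7, D8, D10 and D28, were re-analysed. According to the submitters' processing notes and the study's supplementary methods, Trimmomatic 0.36 trimmed the reads, HISAT2 aligned them, Cufflinks and HTSeq gave the annotated gene counts, and Matlab was used to equalize and transform these. The authors deposited log2 values, the log2 of the equalized count plus 1, with replicates kept apart. The processing notes name GRCm38, the supplementary methods the human genome hg38, and the table lists mouse symbols. Original totals are not kept, so depth is known only from the lowest levels. Strand use in counting is not given in the sources used here.

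The members and all gene lists were chosen with earlier results of these data known. All 38 members were named, with each library's value for the 31 that exceeded 3 reads in all libraries of a time point and for H2-Aa, and the others by range or by the libraries in which they were highest. Of each other list up to 4 called genes with the highest mean level were named, and the 10 genes most like the members. The score for that likeness was the mean of the members' standardised log2 levels. The 4 means were estimated by limma 3.58.1 (R 4.3.3) with a variance trend and no replicate term, and p-values were adjusted over 17674 genes. The fit was tested on simulated data. Against a time point with at most 3 reads in each library, folds are lower bounds with low values raised to 2.87. Levels per kb use GENCODE M21 exons. All 38 members matched GENCODE and 28 the RefSeq promoter table. Sequences, levels per kb and plots were made in Python 3.11.15 (pandas 2.3.3, matplotlib 3.10.9, numpy 2.4.6). Alternatives covered the filter, pseudocount, scaling, prior, thresholds, a replicate block and each replicate left out. Nothing states whether the replicate numbers pair the samples across time points. The labels name no sequencing batch or date.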

Additional observations from a re-analysis of the deposited data

How the results depend on the processing

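Numbers of members called higher or lower varied with the rules as follows. The share of all genes called under each of these rules is not given, nor for replicates left out other than D28 replicate 2. The counts therefore show how the members' own numbers moved, not whether they are many or few. Raising low values to the 3-read floor gave 0 higher and 2 lower at D10 against D8, 3 higher at D10 against D7, 14 higher at D28 against D10 and 0 lower at D8 against D7. A log2 threshold of 2 gave 0 higher at D8 against D7, 1 lower at D10 against D8, 3 higher and 6 lower at D10 against D7, 13 higher and 1 lower at D28 against D10, and 5 higher and 0 lower at D28 against D7. Of the other lists, without those of cell type markers, it left 28 genes called in at least 1 of the 5 comparisons, in place of 46. The study's rule, a log2 difference of at least 1 with an unadjusted p under 0.05, gave 2 higher at D10 against D8, 4 lower at D8 against D7, 12 higher and 2 lower at D28 against D10, and 5 higher and 2 lower at D28 against D7. The adjusted p alone gave 2 higher at D10 against D8, a mean level of at least 3 gave 0 there, and a robust prior without trend gave 0 lower at D8 against D7. A pseudocount of 0.1 gave 5 higher at D28 against D7, and median-of-ratios scaling gave 2 lower at D28 against D10. Leaving F13a1 and H2-Ab1 out of the members, an alternative chosen after seeing the data, gave 2 lower at D28 against D7.

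The median correlation among members was 0.489 with a mean level of at least 3 and 0.196 with a pseudocount of 0.1. Of the 10 genes most like the members, 5 remained when any gene above 0 in 1 library was kept, 3 with a mean level of at least 3 and 4 with a pseudocount of 0.1.

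Leaving out one replicate at a time, members called higher numbered 1 to 3 at D10 against D8, 13 to 22 at D28 against D10 and 4 to 16 at D28 against D7, where the lowest counts of the last 2 were those without D28 replicate 2 and the 16 that without D28 replicate 1. Those called lower numbered 0 to 3 at D8 against D7, 2 to 5 at D10 against D8, 2 to 6 at D28 against D10 and 2 to 5 at D28 against D7. The median correlation ran from 0.009 to 0.373 and the shared most-alike genes from 0 to 10. The cause of these shifts was not tested, apart from the library left out.

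With the replicate number as a block, counts of called members stayed close to those without it: 22 members were called higher at D28 against D10, 9 higher at D28 against D7, and 12 lower at D10 against D7. Of the same other lists, 42 genes were called in at least 1 comparison, in place of 46. Of single genes, 2 member differences and 5 of other lists were no longer called. Same-numbered samples correlated by -0.058 to 0.066 after time point means were removed, and other pairs by -0.071 to 0.094. Genes at a few reads are limited by depth, and 24 of 64 called differences of single members were no longer called with low values raised to the floor.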

Other observations

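Genes for factors that act on myeloid cells were measured in the same libraries. Csf1, the growth factor of the Csf1 receptor, stood at 11.22, 11.08 and 11.62 at D7, 12.42, 11.94 and 11.78 at D8, 11.82, 11.73 and 11.67 at D10 and 12.70, 12.39 and 12.65 at D28. All D28 libraries were above all D7 libraries, by 1.27 ± 0.16 log2 units (limma, Benjamini-Hochberg adjusted p = 1.51e-05), or 1.37 without D28 replicate 2. Il34, the other ligand of that receptor and named here after its values had been seen, was 2.16 ± 0.18 log2 units higher at D10 than at D7 and 3.43 ± 0.18 higher at D28 than at D7, or 3.38 without D28 replicate 2, given with no test.

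The chemokine Cxcl12, which retains blood cells in bone marrow, stood at 11.75, 11.22 and 11.85 at D7, 10.72, 9.84 and 10.53 at D8, 7.40, 7.48 and 7.40 at D10 and 13.32, 13.98 and 13.82 at D28. It was -4.18 ± 0.22 log2 units at D10 relative to D7 and 6.28 ± 0.22 at D28 relative to D10 (limma adjusted p = 2.15e-09 and 7.7e-12), the second 6.14 without D28 replicate 2. Tnfsf11, the osteoclast differentiation factor RANKL, was -2.47 ± 0.18 log2 units at D10 relative to D7 and 3.46 ± 0.18 at D28 relative to D10 (limma adjusted p = 7.07e-08 and 6.89e-10), the second 3.37 without that library. Cx3cl1, fractalkine, was 1.16 ± 0.15 log2 units higher at D28 than at D7 (limma adjusted p = 2e-05), or 1.19 without that library, where its receptor Cx3cr1 was at 0. Of the 10 ligand genes, 5 were called higher and 0 lower at D28 against D7, with or without D28 replicate 2, beside 8.63% and 8.66% of all genes tested, and no ligand gene was at least 1 log2 unit above both other D28 libraries in D28 replicate 2.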
